A study of Homo sapiens with 6 samples.

Results

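The cytochrome P450 genes were followed in U2OS cells, a human osteosarcoma line, through an osmotic shock and its reversal. The members were the rows of the deposited count tables whose symbol is CYP followed by a family number, subfamily letters and a gene number. This rule gave 55 of 19940 gene rows, in 17 families on 15 chromosomes, with 12 members on chromosome 19. It used the symbol alone and no measured value. The only other row whose symbol starts with CYP was the read-through gene CYP3A7-CYP3A51P. Total RNA was sequenced in 6 libraries of 3 groups, 2 libraries each. Rescue cells spent 4 h in hypertonic medium with 300 mM sodium and then 4 h in isotonic medium with 150 mM sodium. Hypertonic cells received the 300 mM medium for 4 h, and isotonic cells the 150 mM medium for 4 h. All groups shared a stable GFP-DCP1A transgene, whose protein belongs to the mRNA decapping complex, and G418 selection for it. The sources used here do not say whether the line is a single clone. Rescue cells were harvested after a further medium change and a longer time than the others, so rescue and the later harvest cannot be told apart. Whether duplicate libraries stem from separate cultures is not stated, so p-values measure only how these libraries vary. That variation may be technical, and for hypertonic and isotonic it holds the split described below.

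Cytochrome P450 enzymes are heme proteins that insert an oxygen atom into small lipophilic substrates. Microsomal members take their electrons from P450 oxidoreductase, encoded by POR. Mitochondrial members take them from ferredoxin and its reductase, encoded by FDX1 and FDXR. Families with low numbers clear drugs and other foreign compounds, mostly in liver and intestine. Family CYP4 hydroxylates the end of fatty acid and eicosanoid chains, and further families make or break down sterols, bile acids, steroid hormones, vitamin D and retinoic acid. In bone cells the vitamin D enzymes CYP24A1 and CYP27B1 are the best known members.

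Values below are CPM, the deposited count scaled to the library total, unless a count is named. Total counts lay between 90196278 and 105991428 per library, at which 3 counts, used as the floor of detection, equal 0.0283 to 0.0333 CPM. Libraries labelled hypertonic and isotonic did not group by their labels, and the members showed the same split. Of the 44 members with at least 100 counts over the 6 libraries, hypertonic 2 and hypertonic 1 were at least 2-fold apart for 18. Isotonic 2 and isotonic 1 were that far apart for 20. Of all 17388 such genes, 3925 and 3976 were that far apart in these pairs. Hypertonic 1 and isotonic 2 differed that much for only 1 member, and hypertonic 2 and isotonic 1 for 0, beside 52 and 39 genes. Between the rescue libraries the number was also 0, beside 20 genes. Log2 ratios between the hypertonic libraries had a standard deviation of 1.35 for the members and 0.952 for all these genes. Between the isotonic libraries it was 1.39 and 0.962, and between the rescue libraries 0.219 and 0.166. Labels were kept as given, each value below is that of the library so labelled, and results are also given within number 1 and within number 2. Labels of a pair of these libraries may have been exchanged, which was not tested. Every hypertonic and isotonic value thus holds only as far as its label does. The fit takes the spread of a gene from all 3 groups, so the split within hypertonic and within isotonic is part of it. For a member that follows the split, such as CYP24A1 or CYP20A1, a missed test does not show that rescue left it unchanged. The rescue libraries also had fewer empty rows over the whole table, with 690 and 699 genes at 0 counts in rescue, 1248 and 1653 in hypertonic and 1627 and 1270 in isotonic. The 381 olfactory receptor rows, of genes that this cell type should not use, summed to 114 and 123 CPM in rescue, 39.8 and 56.6 CPM in hypertonic and 59.6 and 40.2 CPM in isotonic. The part of this shift at low counts in the results below was not tested.

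The promoters of the CYP4F genes on chromosome 19 are shown because 2 of these neighbouring genes, CYP4F2 and CYP4F3, rose far in the rescue libraries while CYP4F11, which lies beside CYP4F2, did not pass the test. CYP4F12, which lies between them and also rose, is not shown. The sequences are from RefSeq (GRCh38.p14) and run 5′ to 3′ from 250 bases before to 50 bases after the annotated start, and CYP4F11 has 2 such starts. Capitals mark the AP-1 motif TGANTCA and the CCAAT box on either strand, which reads ATTGG on the opposite strand.
CYP4F3, chr19:15641062-15641361, plus strand: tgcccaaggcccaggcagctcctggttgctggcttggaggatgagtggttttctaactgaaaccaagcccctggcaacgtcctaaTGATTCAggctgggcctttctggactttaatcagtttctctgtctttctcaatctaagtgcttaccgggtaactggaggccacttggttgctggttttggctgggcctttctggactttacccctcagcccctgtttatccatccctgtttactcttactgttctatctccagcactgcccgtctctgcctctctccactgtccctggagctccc
CYP4F2, chr19:15898025-15898324, minus strand: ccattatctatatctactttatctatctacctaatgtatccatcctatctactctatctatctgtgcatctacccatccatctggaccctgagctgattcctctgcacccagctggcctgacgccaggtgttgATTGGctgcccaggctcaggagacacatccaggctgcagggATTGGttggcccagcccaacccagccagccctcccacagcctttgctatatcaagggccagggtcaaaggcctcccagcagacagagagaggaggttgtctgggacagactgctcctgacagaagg
CYP4F11 first start, chr19:15934818-15935117, minus strand: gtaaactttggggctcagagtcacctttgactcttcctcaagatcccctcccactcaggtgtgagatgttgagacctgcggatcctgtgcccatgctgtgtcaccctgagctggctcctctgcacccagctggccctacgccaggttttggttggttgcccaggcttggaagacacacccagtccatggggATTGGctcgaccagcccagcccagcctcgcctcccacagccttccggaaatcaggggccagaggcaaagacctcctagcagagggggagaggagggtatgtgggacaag
CYP4F11 second start, chr19:15934480-15934779, minus strand: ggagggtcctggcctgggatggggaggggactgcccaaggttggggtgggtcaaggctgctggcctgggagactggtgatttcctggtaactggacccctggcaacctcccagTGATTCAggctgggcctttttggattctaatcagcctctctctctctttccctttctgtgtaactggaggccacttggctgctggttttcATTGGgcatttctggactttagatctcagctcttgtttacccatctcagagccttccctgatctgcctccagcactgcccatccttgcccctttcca
The CYP4F3 window held 1 AP-1 motif and no CCAAT box, and the CYP4F2 window held 2 CCAAT boxes and no AP-1 motif. The second start of CYP4F11 held both motifs and its first start held a CCAAT box alone. In a global alignment the CYP4F2 and CYP4F3 windows were identical at 43.9% of aligned columns. CYP4F2 matched the first start of CYP4F11 at 65.3%, and CYP4F3 matched its second start at 61.8%. Promoters of 39 of 55 members were found in RefSeq, with 52 windows in all. The AP-1 motif was found in 6 of the 52 windows (11.5%) and the CCAAT box in 25 (48.1%), against 7.71% and 34.6% of all 35097 windows of 300 bases. The TATA motif TATAAA was found in 18 (34.6%), against 11.5% of all windows. GCGTG, the core that the aryl hydrocarbon receptor binds, was found in 13 (25%), against 36.5% of all windows. Windows of 1 gene can overlap and are not independent. All motifs were searched on both strands, they did not overlap in the windows shown, and a match describes letters only.

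In rescue against isotonic, 8 P450 genes rose and 2 fell among the 49 tested. CYP4F2, CYP4F3, CYP4F12, CYP8B1, CYP4V2, CYP3A7, CYP46A1 and CYP2S1 rose, and CYP27B1 and CYP2W1 fell. The share of 20.4% compares with 23.1% of all 18208 tested genes at an adjusted p under 0.05 in edgeR's quasi-likelihood test. By direction, 9.61% of all genes rose and 13.5% fell. The members as a group thus changed about as often as any gene, with 16.3% higher and 4.08% lower. Most members had few reads, and low genes rose more often over the whole table. Among members with a mean under 5 CPM, 7 of 35 (20%) rose and 1 fell, and among all such genes 17.3% rose and 0.91% fell. Among the 14 members with a higher mean 1 rose and 1 fell, where 6.65% of all such genes rose and 18.3% fell. The median log2 fold change of the tested members was 0.77, and it was -0.02 over all tested genes. For members under 5 CPM the median was 1.26, beside 1.01 over all genes under 5 CPM. Both rescue libraries lay above both isotonic libraries for 33 of the 49 members, beside 48.6% of all genes, and below them for 4, beside 22.8% of all genes. Shares of such genes at like level were not counted, so these numbers are not read as a trait of the members. In these bulk libraries fewer cells with a transcript and less RNA per cell cannot be told apart.

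In rescue against hypertonic, the same 10 members passed in the same directions, 8 higher and 2 lower, a share of 20.4% beside 23.6% of all genes. Over all genes 9.86% rose and 13.8% fell. Of the members under 5 CPM 7 rose and 1 fell, beside 17.9% and 0.851% of all such genes, and of the others 1 rose and 1 fell, beside 6.77% and 18.7%. Both rescue libraries lay above both hypertonic libraries for 32 members, beside 49.1% of all genes, and below them for 4, beside 22.8%, again without shares for genes of like level. This comparison shares its rescue libraries with the one above. The median log2 fold change of the members was 0.90, and it was -0.02 over all genes. Scaling by library total alone moved the median of all genes by 0.29 against isotonic and 0.30 against hypertonic, and CYP27B1 and CYP2W1 then no longer passed in either comparison (adjusted p between 0.0827 and 0.119), with 8 members higher and 0 lower against isotonic. Against hypertonic CYP4V2 also lost its call (adjusted p = 0.0538), which left 7 members higher and 0 lower. Over all genes this scaling gave 2050 higher and 1095 lower against isotonic, beside 1749 higher and 2453 lower with the scaling used here. Leaving out rescue 1, rescue 2 or either isotonic library left 0 members past the threshold against isotonic, with 9 to 16 at an unadjusted p under 0.05. Leaving out rescue 1, rescue 2 or either hypertonic library did the same against hypertonic, with 9 to 16. Fits within number 1 or number 2 held both rescue libraries, which they share, and the hypertonic and isotonic library of that number. Their spread came from the rescue libraries, and the lone libraries were assumed to vary like them. In both fits, all 10 members passed in the same direction. In these fits 19 of 50 members (38%) were higher in rescue than in isotonic in both numbers, beside 28.3% of all genes, and 4 (8%) were lower, beside 28.4%. Against hypertonic 21 (42%) were higher in both numbers, beside 28.6% of all genes, and 4 (8%) were lower, beside 28.6%. The lower members were CYP27B1, CYP2W1, CYP2A6 and CYP51A1 in both comparisons. Besides the called members, CYP1A1, CYP24A1, CYP2F1, CYP2U1, CYP39A1, CYP3A4, CYP4A22, CYP4B1, CYP4X1 and CYP4Z1 were among the higher members in both comparisons. Shares over genes of like level were not counted in these fits. Taken singly, number 1 gave 31 members higher and 6 lower against isotonic, beside 40.5% and 38.6% of all genes, and 28 higher and 10 lower against hypertonic, beside 41% and 40.5%. Number 2 gave 25 higher and 11 lower against isotonic, beside 40.7% and 40.1% of all genes, and 33 higher and 6 lower against hypertonic, beside 40.5% and 38.6%.

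**Figure D1:**
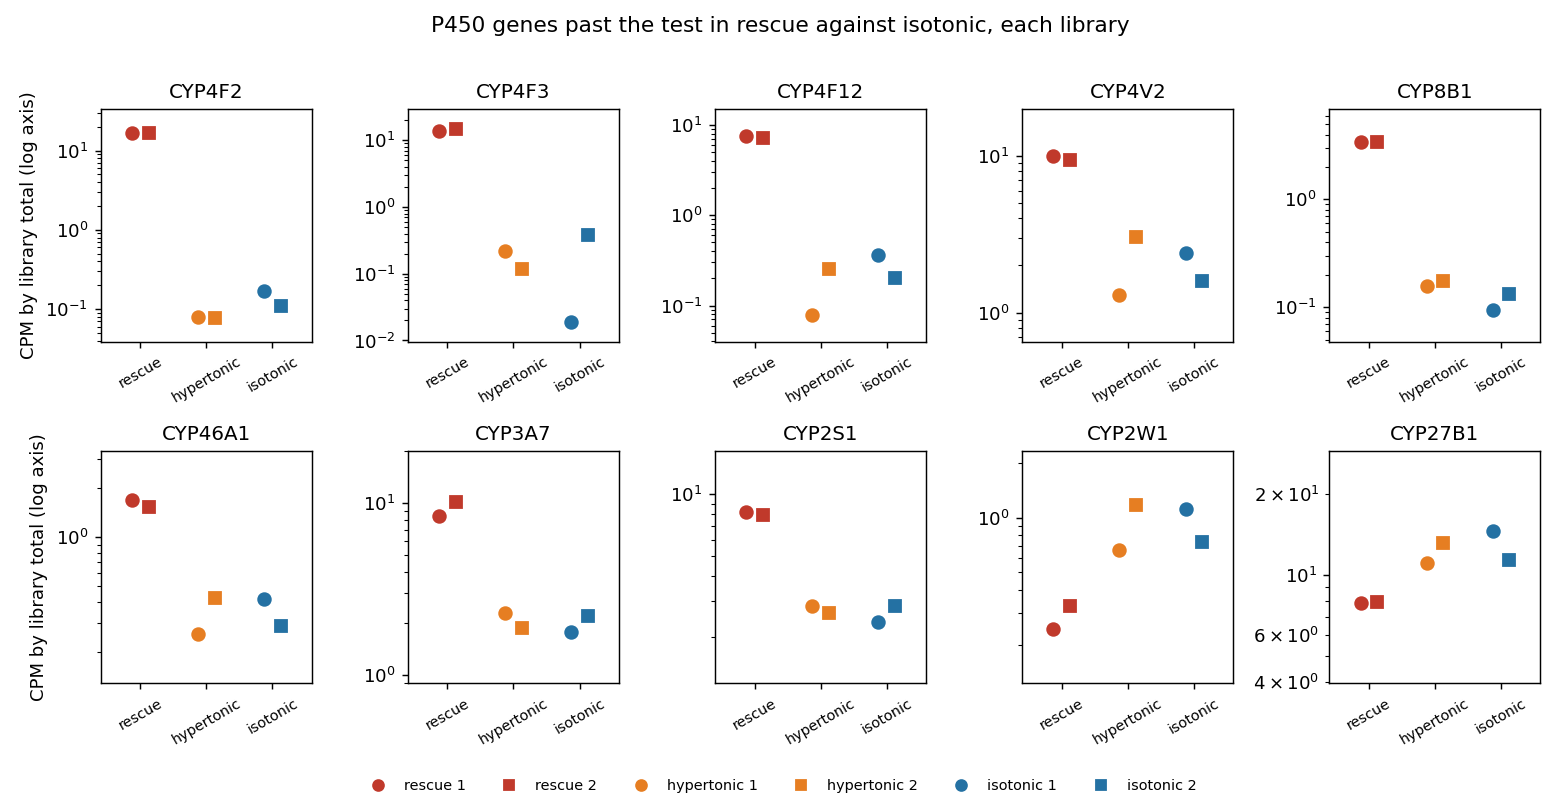
CPM by library total (log axis) of the 10 P450 genes that passed in rescue against isotonic, 1 panel a gene and 1 point a library, circles for number 1 and squares for number 2. In 8 panels both rescue points lie above all others, and for CYP2W1 and CYP27B1 they lie below all others.

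Among the 12 members that act on fatty acids and eicosanoids, 4 of the 10 tested rose in rescue and 0 fell, with a median log2 fold change of 2.06 against isotonic and 2.33 against hypertonic. Over all genes 9.61% rose against isotonic with a median of -0.02, and over genes under 5 CPM 17.3% rose with a median of 1.01. CYP4F2 hydroxylates arachidonic acid and vitamins E and K. It was counted 1740 and 1529 times in the rescue libraries, 8 and 8 times in the hypertonic libraries and 18 and 10 times in the isotonic libraries. These counts equal 16.4 and 16.6 CPM in rescue, 0.0789 and 0.0773 CPM in hypertonic and 0.171 and 0.111 CPM in isotonic. Both rescue values were far above the other 4, with a log2 fold change of 6.57 ± 0.305 (SE) against isotonic (adjusted p = 0.00834) and 7.40 ± 0.320 against hypertonic (adjusted p = 0.00832), or 95.2-fold and 169-fold. CYP4F3 inactivates leukotriene B4 in neutrophils. It was counted 1447 and 1353 times in rescue, 22 and 12 times in hypertonic and 2 and 34 times in isotonic. The rescue libraries stood together, while the isotonic libraries differed by more than any other pair of 1 group for this gene, and isotonic 1 was under the floor of 3 counts. Its log2 fold change was 5.82 ± 1.41 against isotonic (adjusted p = 0.0494) and 6.08 ± 1.42 against hypertonic (adjusted p = 0.0454). The value against isotonic was 9.24 without isotonic 2 and 4.86 without isotonic 1, and neither passed. It also missed the threshold against isotonic with RLE scaling (adjusted p = 0.0503), with upper quartile scaling (adjusted p = 0.0509) and without hypertonic 1 or hypertonic 2 (adjusted p = 0.0635 and 0.065), at nearly the same fold. CYP4F12, of the same subfamily, was at 7.53 and 7.14 CPM in rescue, 0.0789 and 0.251 CPM in hypertonic and 0.361 and 0.200 CPM in isotonic. Its log2 fold change was 4.43 ± 0.633 against isotonic (adjusted p = 0.0164) and 5.19 ± 0.660 against hypertonic (adjusted p = 0.013).

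CYP4F2 and CYP4F3 are close relatives, and reads that match both could be assigned to either. In the GENCODE release 29 transcripts, 2.56% of the 100-base windows of CYP4F2, the length of the reads, also occur in CYP4F3, and 1.56% of those of CYP4F3 occur in CYP4F2. CYP4F12 and CYP4F11 had 0 such windows in any other gene. With the counts of CYP4F2 and CYP4F3 summed into 1 row the log2 fold change of that row was 6.18 against isotonic (adjusted p = 0.0109) and 6.65 against hypertonic (adjusted p = 0.0103), and the other 8 called members passed as before.

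The CYP4F genes lie in a row on chromosome 19 from 15508493 to 15934867 (GRCh38), in the order CYP4F22, CYP4F8, CYP4F3, CYP4F12, CYP4F2 and CYP4F11. CYP4F3, CYP4F12 and CYP4F2, the genes that rose, follow each other in this order. CYP4F11, which hydroxylates fatty acids and vitamin K, lies next to CYP4F2 on the same strand, and was at 10.9 and 10.8 CPM in rescue, 25.6 and 7.82 CPM in hypertonic and 7.65 and 26.6 CPM in isotonic. Its rescue values lay between those of hypertonic 2 and isotonic 1 on the low side and hypertonic 1 and isotonic 2 on the high side, and its log2 fold change against isotonic was -1.0 ± 0.888 (adjusted p = 0.467). CYP4F22, which makes skin acylceramides, was at 1.62 and 1.24 CPM in rescue, 1.18 and 0.744 CPM in hypertonic and 0.646 and 0.931 CPM in isotonic (adjusted p = 0.442 against isotonic). CYP4F8, a prostaglandin hydroxylase of seminal vesicles, had 8 and 3 counts in rescue, 0 and 0 in hypertonic and 0 and 1 in isotonic, too few to be tested. The olfactory receptor genes OR10H2, OR10H3, OR10H5 and OR10H1 lie between CYP4F12 and CYP4F2. OR10H1 had 32 and 30 counts in rescue, 8 and 2 in hypertonic and 0 and 2 in isotonic (adjusted p = 0.0836 against isotonic). OR10H5 had 12 and 4 counts in rescue, 2 and 2 in hypertonic and 4 and 4 in isotonic, and OR10H2, OR10H3 and the more distal OR10H4 had 0 in every library. TPM4 and RAB8A, which follow OR10H4 on the side of CYP4F11, fell in rescue against isotonic by 0.85 and 0.94 on the log2 scale (adjusted p = 0.0309 and 0.011).

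**Figure D2:**
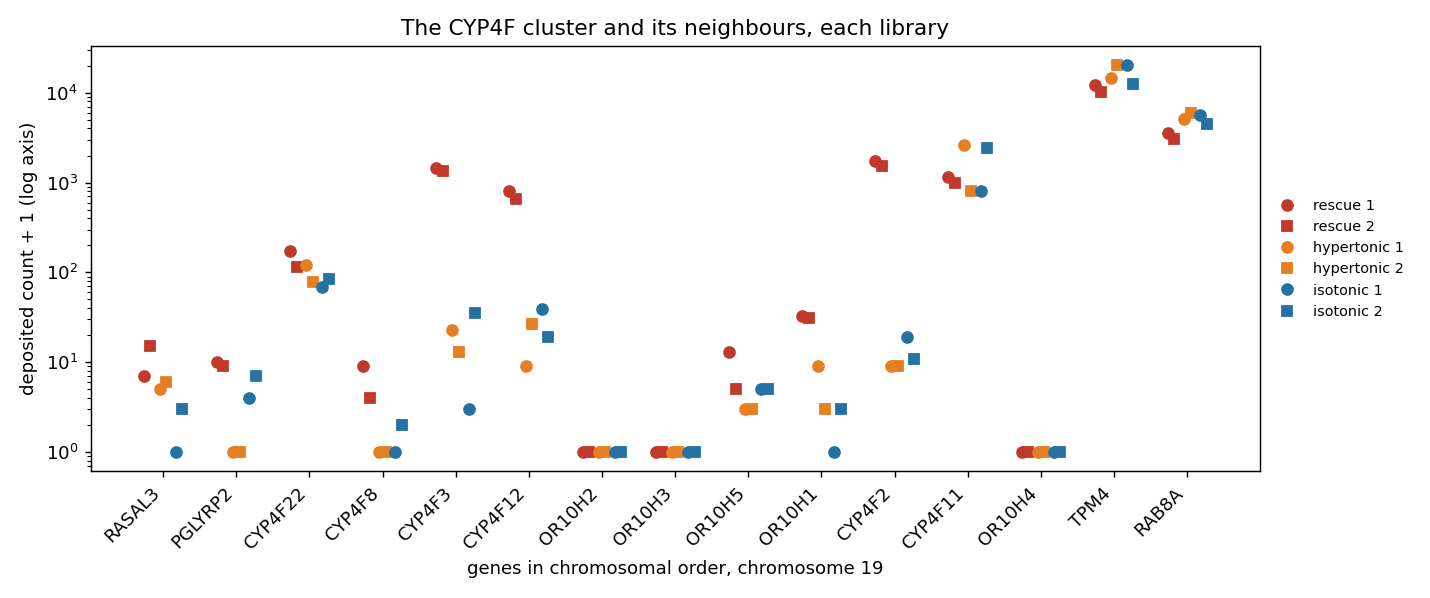
Deposited count plus 1 (log axis) of the CYP4F genes and their neighbours in their order on chromosome 19, 1 point a library. Rescue points of CYP4F3, CYP4F12 and CYP4F2 lie far above the hypertonic and isotonic points, and those of CYP4F11 lie among them.

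Outside the cluster, CYP4V2, a fatty acid hydroxylase of the retina that is mutated in Bietti crystalline dystrophy, was at 9.91 and 9.36 CPM in rescue, 1.30 and 3.01 CPM in hypertonic and 2.39 and 1.60 CPM in isotonic. Both rescue libraries were above the other 4, with a log2 fold change of 1.99 ± 0.439 against isotonic (adjusted p = 0.0401) and 1.88 ± 0.437 against hypertonic (adjusted p = 0.0445). Its row overlaps that of KLKB1 on the same strand, which also rose, by 1.90 ± 0.386 against isotonic (adjusted p = 0.0317). CYP2U1, a fatty acid hydroxylase of brain and thymus, was at 17.2 and 16.1 CPM in rescue, 6.02 and 3.34 CPM in hypertonic and 3.0 and 6.87 CPM in isotonic. Rescue lay above the other 4 libraries, but the test was not passed (log2 fold change 1.43 ± 0.584 against isotonic, adjusted p = 0.153). Within number 1 the log2 fold change of CYP2U1 against isotonic was 2.25 and within number 2 it was 0.91. The arachidonic acid epoxygenase gene CYP2J2 was at 7.28 and 7.72 CPM in rescue, 4.68 and 6.81 CPM in hypertonic and 6.74 and 4.68 CPM in isotonic, with adjusted p = 0.782 against isotonic. CYP4A22 had 148 and 133 counts in rescue, 0 and 36 in hypertonic and 58 and 0 in isotonic, and CYP4B1 had 71 and 58 counts in rescue, 10 and 4 in hypertonic and 5 and 12 in isotonic. Neither passed against isotonic (adjusted p = 0.54 and 0.094). CYP4A11 had between 0 and 6 counts in every library and was not tested.

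Of the 7 sterol and bile acid members, 2 of the 6 tested rose in rescue and 0 fell. Over all genes 9.61% rose and 13.5% fell against isotonic, and of genes under 5 CPM, such as these 2, 17.3% rose. CYP8B1, the hydroxylase that leads to cholic acid in liver, was at 3.44 and 3.44 CPM in rescue, 0.158 and 0.174 CPM in hypertonic and 0.0949 and 0.133 CPM in isotonic. Both rescue values stood above all others, with a log2 fold change of 4.6 ± 0.395 against isotonic (adjusted p = 0.0089) and 4.07 ± 0.382 against hypertonic (adjusted p = 0.00934). The row of CYP8B1 overlaps ACKR2, KRBOX1 and AC092042.3 on the opposite strand, and how strand was treated in counting is not given in the sources used here. ACKR2, a chemokine scavenger receptor gene, had 1259 and 1158 counts in rescue, 42 and 82 in hypertonic and 60 and 36 in isotonic, and its log2 fold change of 4.37 ± 0.392 against isotonic passed as well (adjusted p = 0.00918). In the annotated transcripts 0.991% of the 100-base windows of CYP8B1 also occur in ACKR2, and the part of ACKR2 reads in the CYP8B1 count was not tested. KRBOX1 had 6443 and 5690 counts in rescue, 184 and 2257 in hypertonic and 2279 and 162 in isotonic, so unlike CYP8B1 it was far higher in hypertonic 2 and isotonic 1 than in hypertonic 1 and isotonic 2. CYP46A1 turns cholesterol into its exported form in brain neurons. Its level was 1.68 and 1.52 CPM in rescue, 0.256 and 0.425 CPM in hypertonic and 0.418 and 0.288 CPM in isotonic. Rescue was above both other groups, by 1.89 ± 0.399 on the log2 scale against isotonic (adjusted p = 0.0346) and 1.94 ± 0.400 against hypertonic (adjusted p = 0.0324). CYP39A1, which hydroxylates the product of CYP46A1, was at 7.93 and 9.02 CPM in rescue, 1.52 and 3.88 CPM in hypertonic and 4.18 and 1.40 CPM in isotonic. Both rescue values were above the other 4, which overlapped by group, and its log2 fold change of 1.34 ± 0.652 against isotonic did not pass (adjusted p = 0.21). Within number 1 it was 0.80 and within number 2 it was 2.23.

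CYP51A1, the lanosterol demethylase of cholesterol synthesis, was at 75.4 and 70.1 CPM in rescue, 154 and 102 CPM in hypertonic and 102 and 149 CPM in isotonic. Both rescue libraries were the lowest, and the log2 fold change of -1.10 ± 0.355 against isotonic did not pass (adjusted p = 0.0949). Within number 1 it was -0.71 and within number 2 it was -1.41. Its row overlaps AC000120.2, a read-through gene on the same strand that shares 76.8% of its 100-base windows, so its reads cannot be assigned with certainty. The oxysterol hydroxylase gene CYP7B1 was at 26.4 and 28.3 CPM in rescue, 18.2 and 21.4 CPM in hypertonic and 23.7 and 18.9 CPM in isotonic, with a log2 fold change of 0.07 ± 0.146 against isotonic (adjusted p = 0.759). CYP27A1, the sterol hydroxylase of the acidic bile acid route, had 96 and 94 counts in rescue, 36 and 18 in hypertonic and 22 and 56 in isotonic (adjusted p = 0.444 against isotonic). CYP7A1, the rate-limiting enzyme of bile acid synthesis, had 16 and 6 counts in rescue, 0 and 0 in hypertonic and 2 and 4 in isotonic, and was not tested.

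Of the 7 vitamin D and retinoid members, 0 rose and 1 fell in rescue, beside 9.61% and 13.5% of all genes against isotonic. Their median log2 fold change against isotonic was -0.32, beside -0.02 over all genes. CYP27B1, which activates vitamin D, fell. Its level was 7.91 and 7.92 CPM in rescue, 11.1 and 13.2 CPM in hypertonic and 14.5 and 11.4 CPM in isotonic. Both rescue libraries were the lowest, with a log2 fold change of -1.0 ± 0.168 against isotonic (adjusted p = 0.0214) and -0.92 ± 0.168 against hypertonic (adjusted p = 0.0251). Its row overlaps METTL1 on the same strand, whose log2 fold change was -0.19 ± 0.306 against isotonic (adjusted p = 0.697). CYP24A1, which breaks vitamin D down, was at 69.4 and 70.0 CPM in rescue, 17.5 and 51.2 CPM in hypertonic and 52.8 and 18.8 CPM in isotonic. Rescue was the highest group, but hypertonic 1 and isotonic 2 stood far below the other libraries, and the log2 fold change of 0.70 ± 0.646 against isotonic did not pass (adjusted p = 0.482). Within number 1 it was 0.18 and within number 2 it was 1.52. The hepatic vitamin D hydroxylase gene CYP2R1 was at 14.9 and 15.7 CPM in rescue, 10.9 and 20.1 CPM in hypertonic and 20.4 and 11 CPM in isotonic, so that rescue lay above hypertonic 1 and isotonic 2 and below hypertonic 2 and isotonic 1 (adjusted p = 0.581 against isotonic).

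CYP26B1, which breaks down retinoic acid, was at 17.1 and 16.1 CPM in rescue, 32.2 and 13.9 CPM in hypertonic and 13.8 and 32.1 CPM in isotonic. The retinoid desaturase gene CYP27C1 was at 14.3 and 17.7 CPM in rescue, 46.2 and 13.6 CPM in hypertonic and 14.4 and 45.3 CPM in isotonic. For both genes hypertonic 1 and isotonic 2 were the high libraries and the rescue values lay near hypertonic 2 and isotonic 1, with adjusted p = 0.432 and 0.366 against isotonic. CYP26C1, a further retinoic acid hydroxylase, had 100 and 74 counts in rescue, 8 and 62 in hypertonic and 56 and 4 in isotonic. CYP26A1, the best known of that family, had 8 and 8 counts in rescue, 2 and 18 in hypertonic and 14 and 0 in isotonic. Their test against isotonic gave adjusted p = 0.516 and 0.995.

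Of the 18 members that act mainly on foreign compounds, 17 were tested. In rescue 1 rose and 0 fell, beside 9.61% and 13.5% of all genes against isotonic. CYP3A7, the form of fetal liver, was at 8.44 and 10.1 CPM in rescue, 2.29 and 1.88 CPM in hypertonic and 1.79 and 2.21 CPM in isotonic. Both rescue libraries stood above the rest, with a log2 fold change of 1.91 ± 0.303 against isotonic (adjusted p = 0.0191) and 1.84 ± 0.302 against hypertonic (adjusted p = 0.02). The overlapping row CYP3A7-CYP3A51P held almost the same counts, 887 and 923 in rescue beside 895 and 926 for CYP3A7, and 37.7% of the 100-base windows of CYP3A7 also occur in it. Its neighbour CYP3A5 was at 5.56 and 7.08 CPM in rescue, 1.48 and 5.68 CPM in hypertonic and 4.53 and 1.73 CPM in isotonic, and rescue 1 was below hypertonic 2 (adjusted p = 0.513 against isotonic). CYP3A4, the main drug-clearing enzyme of adult liver, had 56 and 82 counts in rescue, 6 and 14 in hypertonic and 18 and 4 in isotonic. Its log2 fold change of 2.44 ± 0.809 against isotonic did not pass (adjusted p = 0.101).

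The 2 genes CYP2C18 and CYP2C19 followed the split within hypertonic and within isotonic. CYP2C18 was at 2.02 and 2.32 CPM in rescue, 2.13 and 0.251 CPM in hypertonic and 0.304 and 2.55 CPM in isotonic. CYP2C19, which clears proton pump inhibitors, was at 1.84 and 1.89 CPM in rescue, 2.07 and 0.309 CPM in hypertonic and 0.342 and 2.48 CPM in isotonic. Rescue, hypertonic 1 and isotonic 2 were thus alike and hypertonic 2 and isotonic 1 were low. Both rows overlap the read-through gene AL583836.1, which shares 34.5% of the windows of CYP2C18 and 34.9% of those of CYP2C19. CYP2A6, which oxidises nicotine, was at 0.840 and 0.957 CPM in rescue, 4.09 and 1.10 CPM in hypertonic and 1.41 and 4.79 CPM in isotonic. Its row, like that of CYP2A7, overlaps AC008537.1 on the opposite strand. AC008537.1 was at 48.7 and 46.6 CPM in rescue, 108.6 and 60.4 CPM in hypertonic and 62.7 and 110.5 CPM in isotonic. The part of AC008537.1 reads in the counts of CYP2A6 and CYP2A7 was not tested. For CYP2A6 both rescue libraries were below the other 4, and its log2 fold change of -2.12 ± 0.972 against isotonic did not pass (adjusted p = 0.189). Within number 1 and within number 2 its log2 fold change was -0.87 and -2.79 against isotonic, and -2.57 and -0.53 against hypertonic.

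CYP1B1, a dioxin-inducible enzyme that also hydroxylates estradiol, was at 3.47 and 4.03 CPM in rescue, 3.56 and 1.15 CPM in hypertonic and 1.09 and 3.56 CPM in isotonic (adjusted p = 0.795 against isotonic). Its row overlaps RMDN2 on the opposite strand, which rose by 1.02 ± 0.144 on the log2 scale against isotonic (adjusted p = 0.015). CYP2E1, the ethanol oxidase, was at 8.18 and 7.88 CPM in rescue, 6.03 and 11.4 CPM in hypertonic and 10.9 and 6.21 CPM in isotonic (adjusted p = 0.522). Its row overlaps SCART1 and SYCE1. CYP2D6, which clears many antidepressants, was at 4.11 and 4.19 CPM in rescue, 1.83 and 3.35 CPM in hypertonic and 3.08 and 2.75 CPM in isotonic (adjusted p = 0.658). CYP1A1, the classical target of the aryl hydrocarbon receptor, had 108 and 68 counts in rescue, 26 and 44 in hypertonic and 44 and 17 in isotonic, and its log2 fold change of 1.26 ± 0.535 against isotonic did not pass (adjusted p = 0.161). CYP1A2 had between 0 and 3 counts in every library and was not tested. CYP2A7 had 34 and 38 counts in rescue, 198 and 16 in hypertonic and 25 and 214 in isotonic. It was high in hypertonic 1 and isotonic 2 and low in the other 4 libraries. The lung gene CYP2F1 had 101 and 94 counts in rescue, 40 and 27 in hypertonic and 50 and 42 in isotonic, with rescue above the rest. CYP2A13, CYP2B6, CYP2C8 and CYP3A43 had between 0 and 31 counts in every library.

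None of the 4 tested steroid hormone members passed in edgeR, beside 23.1% of all genes against isotonic and 23.6% against hypertonic. At an unadjusted p under 0.05 there was 1 against isotonic and 0 against hypertonic. CYP11A1, which starts steroid synthesis by cutting the cholesterol side chain, was at 7.23 and 7.34 CPM in rescue, 8.64 and 1.33 CPM in hypertonic and 0.902 and 7.29 CPM in isotonic. Hypertonic 2 and isotonic 1 were low and the other 4 libraries lay close together (adjusted p = 0.824 against isotonic). The aromatase gene CYP19A1 had 44 and 45 counts in rescue, 18 and 6 in hypertonic and 6 and 6 in isotonic, with a log2 fold change of 2.55 ± 0.746 against isotonic (adjusted p = 0.0745) and 1.60 ± 0.707 against hypertonic (adjusted p = 0.174). CYP21A2, an adrenal hydroxylase gene whose row overlaps TNXB on the opposite strand, had 61 and 68 counts in rescue, 26 and 10 in hypertonic and 3 and 26 in isotonic. CYP17A1, which opens the way to androgens, had 24 and 20 counts in rescue, 6 and 14 in hypertonic and 9 and 2 in isotonic. Its row overlaps WBP1L on the opposite strand, which had 5138 and 4420 counts in rescue, 2746 and 4840 in hypertonic and 4914 and 2183 in isotonic. CYP11B1 and CYP11B2, the last enzymes of cortisol and aldosterone synthesis, had 4 to 9 counts in the rescue libraries and 0 in all hypertonic and isotonic libraries, and were not tested. Both rows overlap GML on the opposite strand, which had 128 and 110 counts in rescue, 22 and 5 in hypertonic and 4 and 16 in isotonic.

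Of the 5 members with little known roles, 1 rose and 1 fell, beside 9.61% and 13.5% of all genes against isotonic. CYP2S1, an epithelial member, was at 8.17 and 7.88 CPM in rescue, 2.83 and 2.62 CPM in hypertonic and 2.37 and 2.83 CPM in isotonic. Both rescue libraries were above the rest and the other 4 lay close together, with a log2 fold change of 1.32 ± 0.256 against isotonic (adjusted p = 0.0285) and 1.25 ± 0.255 against hypertonic (adjusted p = 0.0318). CYP2W1, known from colon tumours, was at 0.245 and 0.326 CPM in rescue, 0.661 and 1.17 CPM in hypertonic and 1.12 and 0.732 CPM in isotonic. Rescue was below all others, with a log2 fold change of -1.97 ± 0.446 against isotonic (adjusted p = 0.0405) and -1.96 ± 0.446 against hypertonic (adjusted p = 0.0409). CYP4Z1, known from breast tissue, was at 3.40 and 3.91 CPM in rescue, 0.789 and 1.62 CPM in hypertonic and 1.36 and 0.987 CPM in isotonic. Rescue was apart from the other 4 libraries, and the log2 fold change of 1.35 ± 0.402 against isotonic did not pass (adjusted p = 0.0767). CYP20A1, a member without a known substrate, was at 44.8 and 46.5 CPM in rescue, 15.6 and 38.9 CPM in hypertonic and 39.8 and 15.3 CPM in isotonic (adjusted p = 0.597 against isotonic). CYP4X1 had 102 and 149 counts in rescue, 4 and 28 in hypertonic and 52 and 18 in isotonic (adjusted p = 0.286).

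**Figure D3:**
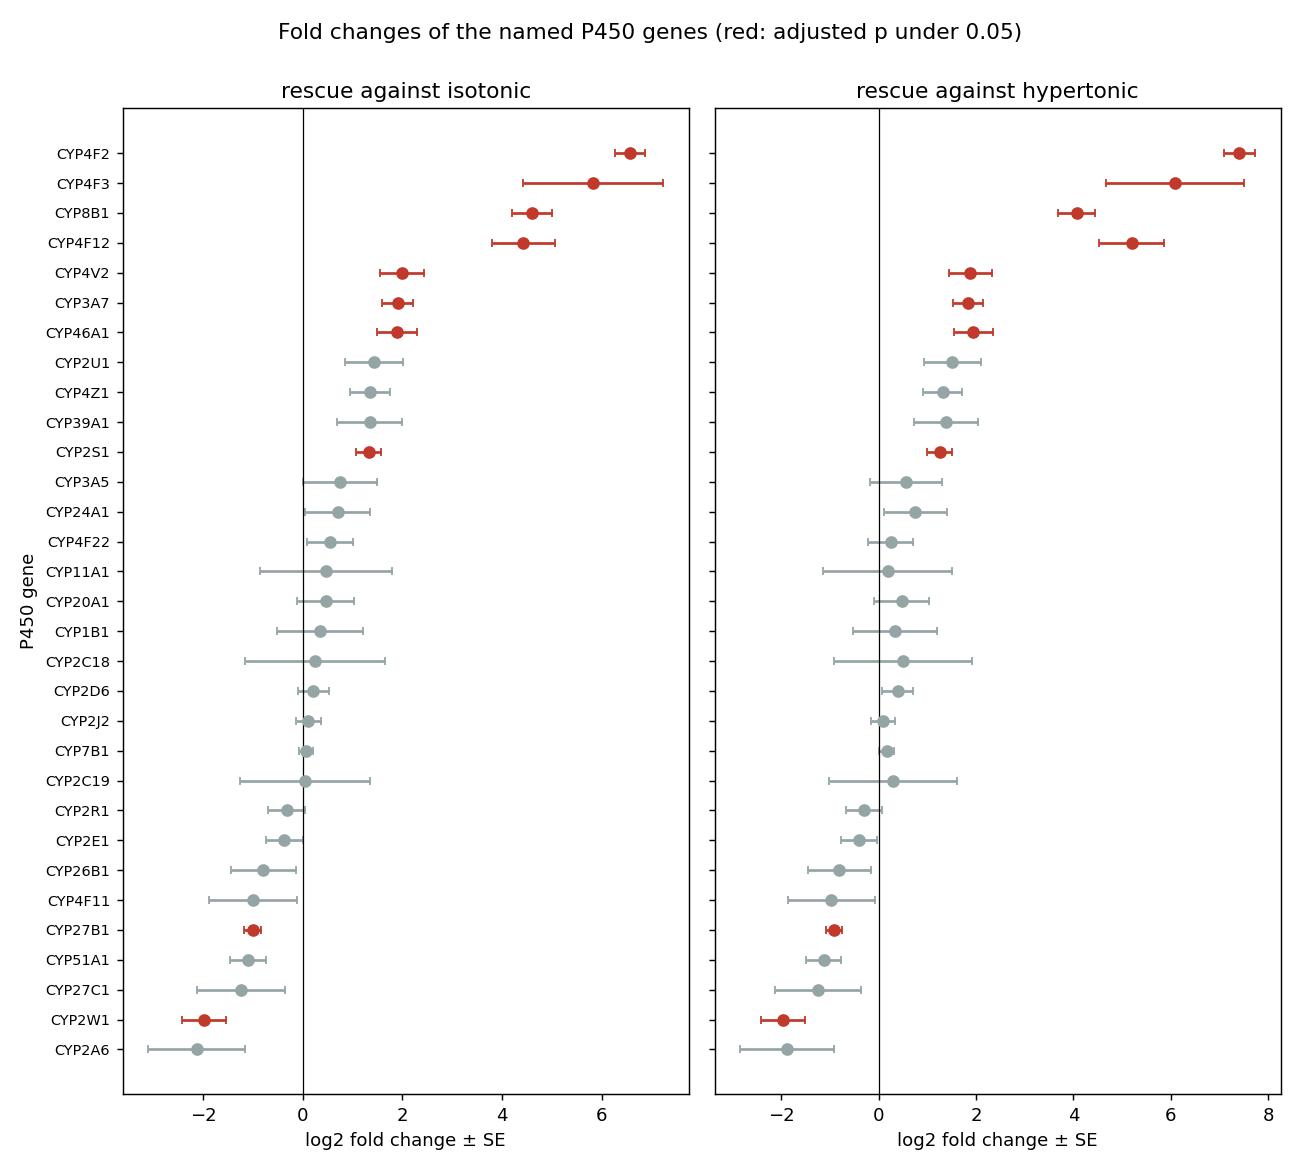
Log2 fold change with SE, derived from the F statistic of the test, of the 31 P450 genes that averaged 1 CPM or more, reached 5 CPM in a library or passed the test, rescue against isotonic on the left and rescue against hypertonic on the right, red where the adjusted p was under 0.05. The intervals of CYP4F2, CYP8B1 and CYP4F12 lie far to the right of 0, and the wide interval of CYP4F3 shows its spread between libraries.

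The 24 members outside the named set reached at most 2.37 CPM in any library. Of these, 18 were tested and 0 passed in edgeR, with 3 at an unadjusted p under 0.05 against isotonic and 4 against hypertonic. The tested ones had a log2 fold change above 0 in 17 against isotonic and in 16 against hypertonic. Over all genes under 5 CPM the median log2 fold change was 1.01 and 1.02, and their share above 0 was not counted. The 6 members not tested (CYP1A2, CYP4A11, CYP4F8, CYP7A1, CYP11B1 and CYP11B2) had at most 16 counts in a library. Over all members, 1 and 1 had no count in the rescue libraries, 7 and 6 in the hypertonic libraries and 5 and 4 in the isotonic libraries. At least 5 CPM was reached by 21 and 21 members in rescue, 12 and 12 in hypertonic and 11 and 12 in isotonic, and the share over all genes was not counted. Low counts of the tables were mostly even numbers, 78.5% of the 181 member counts from 1 to 200 and 73.2% of the 26925 such counts in all rows, so small counts may not be single fragments and their counting error may be larger than the floor implies.

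**Figure D4:**
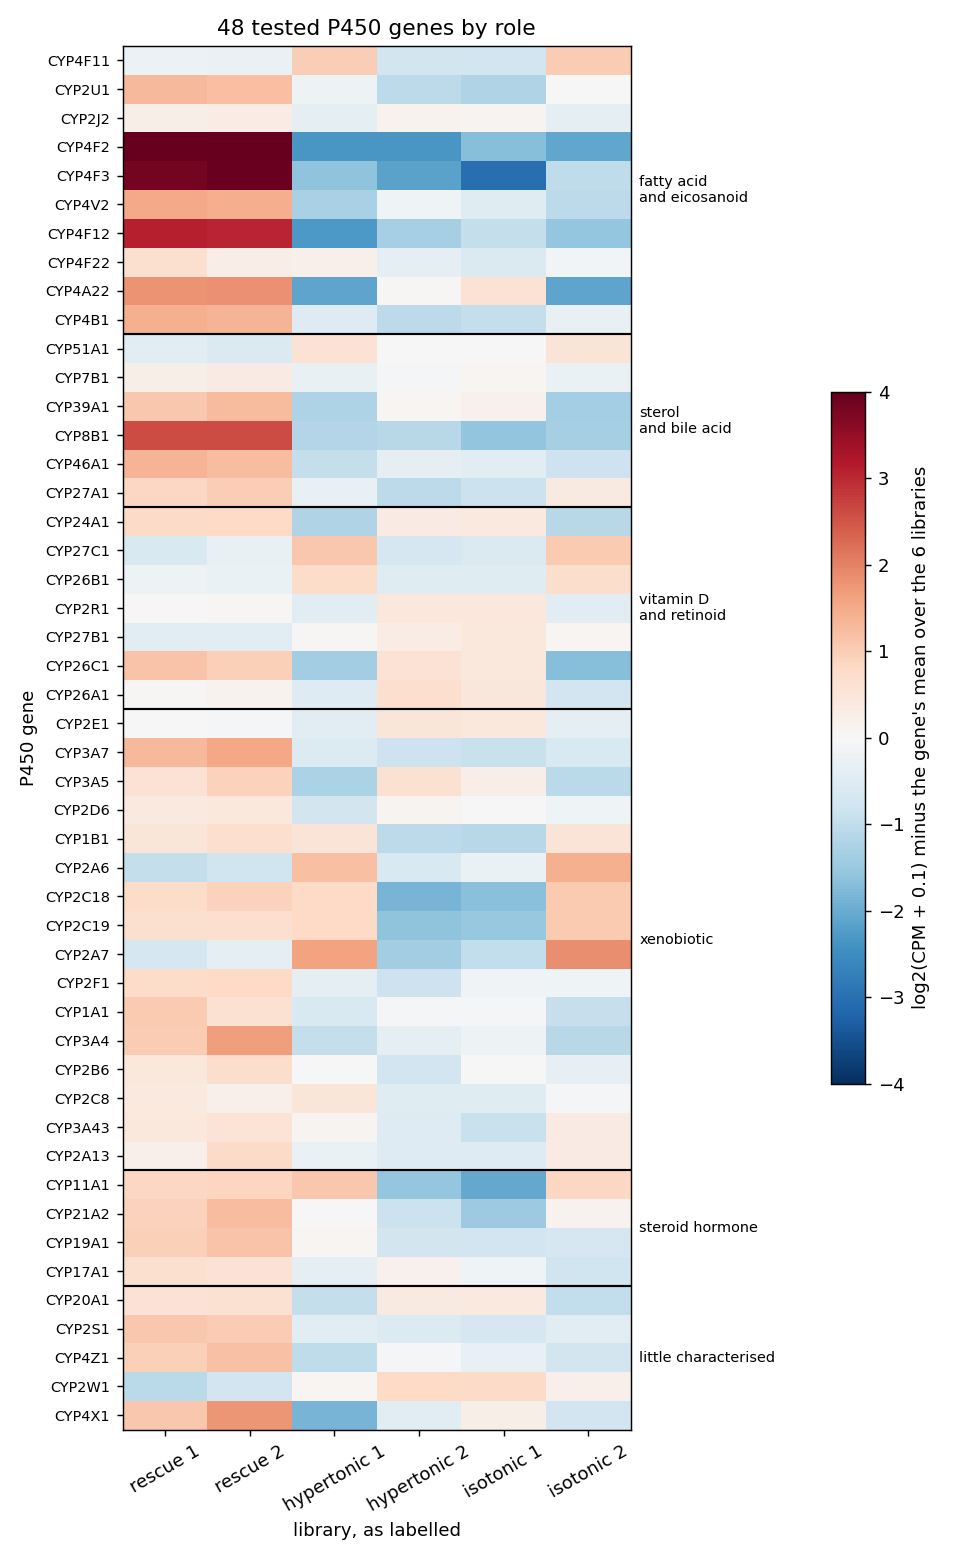
Log2(CPM + 0.1) of 48 tested P450 genes minus the mean of each gene over the 6 libraries, genes grouped by role and libraries as labelled, with colours capped at 4 in either direction. Most rows are red in both rescue columns, and hypertonic 1 resembles isotonic 2 while hypertonic 2 resembles isotonic 1.

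Hypertonic against isotonic gave 0 of 49 members and 0% of all genes at an adjusted p under 0.05 in edgeR, with 0 members and 52 genes at an unadjusted p under 0.05. DESeq2 called 0 members and 1 gene, and limma voom called 0 members. This count rests on labels that may have been exchanged. The direction differed between the numbers. Both hypertonic libraries lay above both isotonic libraries for 1 member and below them for 2, beside 2.59% and 3.05% of all genes. Within number 1, 20 of 51 members were higher and 14 lower, beside 31.6% and 32.6% of all genes. Within number 2, 12 of 50 were higher and 15 lower, beside 32.9% and 31% of all genes. In both numbers 25 members passed, and all 25 had opposite directions. In 14 members (28%) hypertonic was higher in number 1 and lower in number 2, beside 27.9% of all genes. In 11 members (22%) it was lower in number 1 and higher in number 2, beside 30.1% of all genes. CYP27C1 had a log2 fold change of 1.83 in number 1 and -1.87 in number 2, and CYP4F11 had 1.90 in number 1 and -1.90 in number 2. CYP24A1 had -1.44 in number 1 and 1.30 in number 2, and CYP20A1 had -1.19 in number 1 and 1.2 in number 2. Opposite directions were not particular to the members. Over all 18208 tested genes, deviations from the group means correlated at -0.876 between hypertonic and isotonic libraries of the same number. Of the 29 members with a mean of at least 1 CPM, 27 had opposite signs in the 2 numbers, and the share over all genes was not counted. The exceptions were CYP4F2, at -0.95 and -0.65, and CYP8B1, at 0.88 and 0.24, and none of these 4 values passed in its edgeR fit (adjusted p between 0.15 and 0.73).

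**Figure D5:**
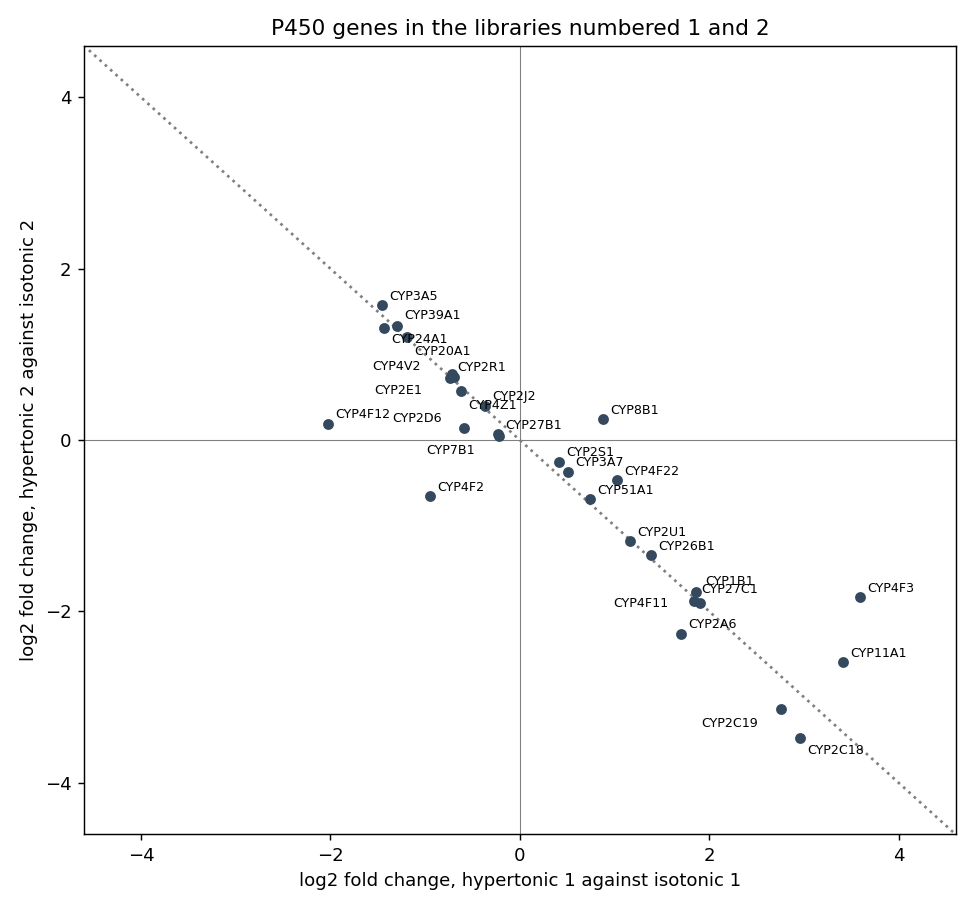
Log2 fold change of hypertonic against isotonic within number 1 (horizontal axis) and within number 2 (vertical axis) for the 29 P450 genes that averaged 1 CPM or more, with a dotted line of equal size and opposite sign. Most genes lie along that line, 27 have opposite signs, and CYP4F2 and CYP8B1 do not.

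Of 14 tested genes listed around the electron supply of the P450 enzymes 1 rose and 2 fell in rescue against isotonic, beside 9.61% and 13.5% of all genes. Their median log2 fold change was -0.16. The list is wider than the electron donors, as it also held the heme enzyme genes ALAS1, HMOX1 and HMOX2, and FDX2, PGRMC1 and PGRMC2. POR was at 73.7 and 73.2 CPM in rescue, 61.6 and 50.3 CPM in hypertonic and 52.5 and 60.2 CPM in isotonic, with a log2 fold change of 0.08 ± 0.210 against isotonic (adjusted p = 0.812). FDXR, the reductase of the mitochondrial chain, rose by 1.28 ± 0.113 on the log2 scale (adjusted p = 0.0089). Its level was 87.1 and 82.6 CPM in rescue, 27.1 and 31.1 CPM in hypertonic and 30.3 and 27.0 CPM in isotonic. The cytochrome b5 gene CYB5B fell by 1.02 ± 0.178 (adjusted p = 0.024) and the heme-binding PGRMC2 by 0.84 ± 0.109 (adjusted p = 0.0131). TBXAS1 and PTGIS, which encode enzymes of the P450 fold outside the symbol rule, did not pass, with a median log2 fold change of -0.19.

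Of the regulators, the receptor gene AHR was at 66.0 and 72.2 CPM in rescue, 35.8 and 16.4 CPM in hypertonic and 17.2 and 43.1 CPM in isotonic, and its log2 fold change of 0.87 ± 0.653 against isotonic did not pass (adjusted p = 0.393). In its axis 1 of 10 genes rose against isotonic and 2 fell, beside 9.61% and 13.5% of all genes. The gene that rose was ALDH3A1, with a mean of 0.354 CPM over the 6 libraries. It did not pass against hypertonic (adjusted p = 0.0678). The chaperone genes HSP90AB1 and PTGES3 fell, HSP90AB1 by 0.63 ± 0.138 on the log2 scale and PTGES3 by 0.96 ± 0.0892 (adjusted p = 0.0392 and 0.00924). Of 17 tested nuclear receptor and partner genes 4 rose and 2 fell, with a median of 0.42. Among all genes under 5 CPM 17.3% rose, with a median of 1.01. NR1I2, the receptor that drives CYP3A genes in liver, rose by 3.81 ± 0.607 on the log2 scale (adjusted p = 0.0202), and HNF4A, NR5A2 and CEBPA rose and NR1I3 fell. These 5 had means under 5 CPM, and they and ALDH3A1 are named after their values were seen. PPARA, a fatty acid receptor, fell by 1.77 ± 0.360 (adjusted p = 0.0332). VDR, the vitamin D receptor gene, was at 43.5 and 44.2 CPM in rescue, 19.5 and 32.9 CPM in hypertonic and 35.2 and 19.1 CPM in isotonic (adjusted p = 0.422 against isotonic). In the vitamin D list 0 of 6 genes rose and 1 fell, DHCR7, which diverts the precursor of vitamin D to cholesterol. In the retinoic acid list 2 of 12 rose and 0 fell. The nuclear receptor, vitamin D and retinoic acid lists likewise stand beside 9.61% of all genes higher and 13.5% lower. DHRS3, which reduces retinal, rose by 3.36 ± 0.459 (adjusted p = 0.015) and ALDH1A2, which makes retinoic acid, by 1.67 ± 0.293 (adjusted p = 0.024).

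In the sterol synthesis list around CYP51A1, 7 of 16 genes fell in rescue against isotonic and 0 rose, with a median log2 fold change of -0.82. Over all genes 13.5% fell with a median of -0.02, and over genes of at least 5 CPM 18.3% fell with a median of -0.20. The same numbers of genes passed against hypertonic, with a median of -0.86. SQLE, which precedes the step of CYP51A1, was at 69.9 and 67.7 CPM in rescue, 216 and 151 CPM in hypertonic and 150 and 210 CPM in isotonic. It fell by 1.70 ± 0.327 on the log2 scale (adjusted p = 0.0295). LBR, DHCR7 and MSMO1, which act after CYP51A1, fell by 1.64 ± 0.196, 1.29 ± 0.117 and 1.21 ± 0.139 (adjusted p = 0.0121, 0.00911 and 0.011). CYP51A1 was also lowest in rescue, but did not pass.

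In the eicosanoid and fatty acid list 7 of 17 genes rose and 2 fell against isotonic, and 6 rose and 2 fell against hypertonic. Of all genes 9.61% rose and 13.5% fell against isotonic, and of genes under 5 CPM 17.3% rose. EPHX2, which hydrolyses the epoxides that P450 enzymes make, was at 24.9 and 24.8 CPM in rescue, 4.48 and 6.34 CPM in hypertonic and 6.72 and 4.72 CPM in isotonic. It rose by 1.83 ± 0.230 on the log2 scale (adjusted p = 0.0124). The lipoxygenase genes ALOX12 and ALOX5 rose by 1.07 ± 0.187 and 1.06 ± 0.170 (adjusted p = 0.0232 and 0.0195), and the alcohol dehydrogenase gene ADH5 fell by 0.92 ± 0.121 (adjusted p = 0.0134). In the oxysterol and bile acid list 2 of 8 rose and 0 fell, AMACR by 1.66 ± 0.210 (adjusted p = 0.0126) and the low AKR1D1. In the steroid hormone list 2 of 11 rose and 0 fell, HSD17B3 by 2.21 ± 0.404 (adjusted p = 0.0268) and the low HSD11B1. AKR1D1 and HSD11B1 are also named after their values were seen, as is ALOX5AP, which fell in the eicosanoid list. The same holds for PTGS1 and PTGES of that list, with means under 5 CPM. They rose more than EPHX2, by 3.72 ± 0.578 and 3.30 ± 0.383 against isotonic (adjusted p = 0.0191 and 0.0113). In the phase 2 conjugation list 0 of 14 rose and 2 fell, TPMT by 1.11 ± 0.194 and UGT8 by 0.85 ± 0.158 (adjusted p = 0.0231 and 0.0264).

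Markers of the cell types that use P450 genes most were also read. The bone matrix genes COL1A1 and SPARC and the osteoblast factor RUNX2 were detected in every library, with SPARC between 686 and 744 CPM, while 3 of the 9 bone markers, COL1A2, SP7 and IBSP, stayed under 1 CPM in every library. Hepatocyte markers stayed under 1 CPM in every library for 8 of 9 genes, with FGA at 0 throughout, and SERPINA1 at 114 and 105 CPM in rescue, 69.9 and 111 CPM in hypertonic and 111 and 75.1 CPM in isotonic. Summed over the list, hepatocyte markers stood at 116.1 and 107 CPM in rescue, 71.4 and 111.5 CPM in hypertonic and 111.2 and 76.3 CPM in isotonic. ALB was at 0.368 and 0.391 CPM in rescue, 0.00986 and 0.0193 CPM in hypertonic and 0 and 0.0665 CPM in isotonic. Summed markers of steroidogenic cells were at 4.50 and 4.18 CPM in rescue, 2.05 and 1.35 CPM in hypertonic and 1.26 and 2.59 CPM in isotonic. Those of enterocytes were at 18.7 and 19.3 CPM in rescue, 13.7 and 19.3 CPM in hypertonic and 19.1 and 12.9 CPM in isotonic, and none of the tested genes of the hepatocyte, steroidogenic and enterocyte lists passed against isotonic in edgeR. Against hypertonic the steroidogenic marker FSHR rose by 1.96 ± 0.479 on the log2 scale (adjusted p = 0.0478) and the keratinocyte marker DSG1 by 2.56 ± 0.606 (adjusted p = 0.0449), both named after their values were seen, and the bone marker COL1A1 fell by 0.59 ± 0.140 (adjusted p = 0.0466). Summed keratinocyte markers were at 21.5 and 21.3 CPM in rescue, 16.6 and 21.1 CPM in hypertonic and 21.3 and 17.2 CPM in isotonic. Summed myeloid markers were at 19.8 and 18.9 CPM in rescue, 13.4 and 7.39 CPM in hypertonic and 6.85 and 14.8 CPM in isotonic. The part of these markers in the results above was not tested.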

How the data were processed

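Total RNA of U2OS cells with stable GFP-DCP1A was sequenced after rRNA removal, with 100-nt reads, per the labels' protocols. The authors deposited whole-number read counts per gene, 1 table per library. The submitters' processing notes name bcl2fastq, TopHat2, Bowtie2, bedtools and the builds GRCh38 and hg38. For versions, counted features, annotation and strand the sources used here give nothing, which bears on overlapping genes. The P450 members and all gene lists were chosen with earlier results of these data known.

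Counts were fitted as deposited over all genes that passed edgeR's filter on low counts (18208 of 19940), with TMM scaling and the quasi-likelihood test (edgeR 4.0.16, limma 3.58.1, R 4.3.3), 3 groups sharing 1 spread, and Benjamini-Hochberg adjustment over all tested genes for each of 3 comparisons at a threshold of 0.05. Folds are 2 to the power of the fitted log2 fold change. SE is the size of the log2 fold change divided by the square root of the F statistic of its test. It was not fitted as a standard error of its own. Levels are CPM by library total, and comparisons of libraries used log2(CPM + 0.1). Tables and figures were made with python 3.11.15, numpy 2.4.6, pandas 2.3.3, scipy 1.17.1 and matplotlib 3.10.9. The edgeR fit was run on simulated counts without the split within hypertonic and isotonic, which does not show how often it recovers changes in these data. Members with a mean of at least 1 CPM, at least 5 CPM in a library or past the test are given in every library. The values of 1 member are not reported here, and it is counted in the totals. Listed genes are named if they passed and averaged 5 CPM or more, up to 4 a list. Total counts of 90196278 to 105991428 put the floor of 3 counts at 0.0283 to 0.0333 CPM, which covers counting error only. Coordinates and overlaps are from GENCODE release 29 (GRCh38) and promoters from RefSeq.

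Replicate numbers are shared by the groups, but they did not pair the samples: deviations of same-numbered libraries from their group means correlated at 0.0395 for rescue with hypertonic, -0.0263 for rescue with isotonic and -0.876 for hypertonic with isotonic, across 18208 genes, which are not independent replicates. Alternatives were RLE, upper quartile and library total scaling, no filter on low counts, DESeq2 1.42.0, limma voom, a replicate block, each library left out, both rescue libraries with the other libraries of number 1 or of number 2, and CYP4F2 and CYP4F3 summed. The crossed block was chosen after seeing the data.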

Additional observations from a re-analysis of the deposited data

How the results depend on the processing

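Over 16 alternatives the 20 fold changes of the 10 called members kept their sign in all 318 values, and 200 values passed the threshold. Against isotonic the count of called members was 9 with RLE scaling, 8 with upper quartile scaling, 8 with library totals, 10 with no filter, 15 with DESeq2, 11 with limma voom and 9 with CYP4F2 and CYP4F3 summed. Leaving out each library gave 0 to 9 members and 0 to 3460 genes against isotonic, 0 to 8 members and 0 to 3691 genes against hypertonic, and 0 to 0 of both for hypertonic against isotonic. DESeq2 called 7041 genes against isotonic, 17 members and 7105 genes against hypertonic, and 1 gene for hypertonic against isotonic. Both rescue libraries with hypertonic 1 and isotonic 1 gave 37 members and 14591 genes against isotonic, 38 members and 15027 genes against hypertonic, and 34 members and 11841 genes for hypertonic against isotonic. Both rescue libraries with hypertonic 2 and isotonic 2 gave 36 members and 14898 genes, 39 members and 14586 genes, and 27 members and 11776 genes in the same order. Both fits share the rescue libraries and take their spread from them alone.

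With the replicate number as a block 0 members and 0 genes passed in edgeR against isotonic or hypertonic, with 10 members at an unadjusted p under 0.05 in each. The numbers did not pair the samples. The crossed block, hypertonic 1 with isotonic 2 and hypertonic 2 with isotonic 1, called 21 genes and 0 members for hypertonic against isotonic. The cause of these differences was not tested. With 2 libraries a group the spread rests on few libraries, and members with few counts cannot show small changes at this depth.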
